A study of Homo sapiens with 12 samples.

Results

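The genes described here are JCHAIN, VPREB3 and 8 further genes that mark plasma cells or their precursors: MZB1, CD38, SDC1, TNFRSF17, TNFRSF13B, SLAMF7, TXNDC5 and CD27. They are the rows of the deposited table that carry these names, 10 of 61466 genes. RNA sequencing was done on 2 human lines of diffuse large B cell lymphoma, Farage and SU-DHL-8, after 12 h with morusinol, a prenylated flavonoid of mulberry root bark, or without it. The 4 groups were Farage morusinol, Farage control, SU-DHL-8 morusinol and SU-DHL-8 control, each with 3 libraries. The labels record the controls as WT and name neither the dose, what the controls received nor whether the replicates were separate cultures, so all p-values and SDs describe the spread between libraries, which may be technical. JCHAIN and VPREB3 were chosen by their FPKM values after morusinol. These lay far below the controls in Farage for JCHAIN and in both lines for VPREB3. The others were listed with results of the morusinol comparisons known. The differences between morusinol and control are therefore given for these 10 genes as a description, with no test.

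A B cell that becomes a plasma cell turns from displaying an antibody on its surface to secreting it in bulk. The transcription factors IRF4, PRDM1 (Blimp-1) and XBP1 drive this change, while PAX5, BCL6 and BACH2 hold the cell in the B cell state. Plasma cells enlarge their endoplasmic reticulum (ER), make the J chain that links IgM and IgA into polymers, and carry receptors for the survival factors BAFF and APRIL. Diffuse large B cell lymphomas arise from mature B cells that have reached various points on this path.

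Levels are given as FPKM, a fragment count per kilobase of gene corrected for the depth of the library. Log2 differences are of FPKM + 1, with the standard error of a limma fit to all 12 libraries, and n = 3 libraries per group throughout. Depth estimated from the steps of the values was 9.36 to 12.7 M fragments in Farage morusinol, 16.6 to 18.9 M in Farage control, 6.05 to 14.96 M in SU-DHL-8 morusinol and 14.2 to 15.2 M in SU-DHL-8 control. The morusinol libraries were thus mostly shallower, and the shallowest was SU-DHL-8 morusinol replicate 2; the part of depth in the differences below was not tested. A total of 17574 genes reached at least 1 FPKM in at least 3 libraries and were tested. Of the 10 genes 8 passed this filter and SDC1 and TNFRSF13B did not. SLAMF7 and CD27 passed through the Farage libraries alone and TXNDC5 through SU-DHL-8 alone. The 5 B cell markers MS4A1, CD79A, CD79B, PAX5 and CD22 summed to 569 to 612 FPKM in Farage morusinol, 892 to 943 in Farage control, 192 to 196.5 in SU-DHL-8 morusinol and 304 to 318.5 in SU-DHL-8 control. The 5 did not move together. In SU-DHL-8 the means of MS4A1, CD79A and CD22 were lower with morusinol, and those of CD79B and PAX5 were higher. CD79A averaged 43.0 FPKM there with morusinol and 175 in controls. In Farage all 5 means were lower, MS4A1 at 92.9 FPKM against 356 in controls and CD79A at 376 against 391. Of 12 T and NK cell markers 10 stayed under 1 FPKM in every library, as did 7 of 8 myeloid markers and 9 of 10 markers of stroma, endothelium and epithelium. In bulk RNA, fewer cells that express a gene and less RNA per cell cannot be told apart.

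SDC1 (syndecan 1, or CD138, the proteoglycan by which plasma cells are usually identified) was all but missing from the libraries. It was listed at 0.0219, 0 and 0 FPKM in Farage morusinol and at 0, 0.0298 and 0 FPKM in Farage control. In SU-DHL-8 it was listed at 0, 0 and 0.0370 FPKM with morusinol and at 0, 0.00974 and 0 FPKM in controls. The best known surface marker of plasma cells was therefore at or near 0 in all groups, so the 10 genes are named here for what they are known to mark and not as evidence of plasma cells.

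**Figure D1:**
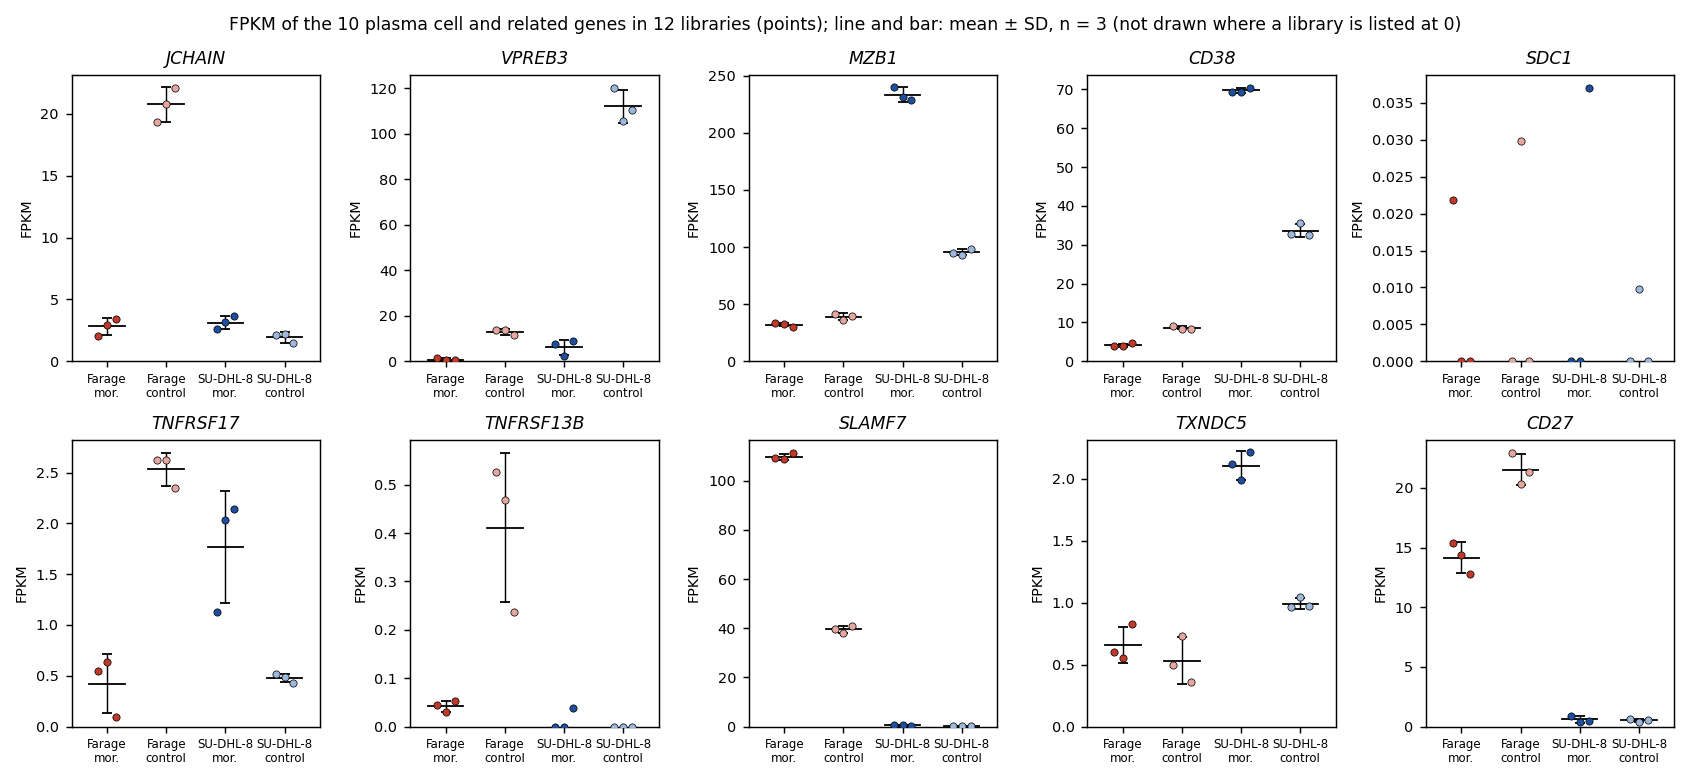
FPKM of each of the 10 genes on a linear axis, 1 panel per gene with its own scale, for the 4 groups; points are libraries, lines and bars the mean ± SD (n = 3), left out where a library is listed at 0. JCHAIN stands high only in the Farage controls (19.3 to 22.1 FPKM), VPREB3 in the SU-DHL-8 controls (105 to 120 FPKM) and SLAMF7 in Farage with morusinol (109 to 111 FPKM).

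The first comparison sets the untreated lines side by side, Farage control against SU-DHL-8 control. It shares its control libraries with the morusinol comparisons, whose results were known when the genes were chosen. SLAMF7, CD27 and TXNDC5 were also in the fit only through the line where they are high. All 8 fitted genes are therefore given with no test. Of the 8 fitted genes 4 were higher in Farage (JCHAIN, TNFRSF17, SLAMF7 and CD27) and 4 were lower (VPREB3, MZB1, CD38 and TXNDC5). The 3 and 3 values did not overlap for any of the 8, nor for 69.5% of the 17574 genes (37.4% higher in Farage and 32.1% lower). An adjusted p under 0.05 in limma was reached by 64.1% of all genes (34.5% higher in Farage and 29.6% lower), so a call is the usual outcome in this comparison.

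SLAMF7, a self-binding receptor of the SLAM family and an antibody target in myeloma, had 39.7, 38.0 and 40.7 FPKM in Farage control against 0.136, 0.0437 and 0.0840 FPKM in SU-DHL-8 control (5.22 ± 0.07). The SU-DHL-8 values amount to about 3 to 10 fragments per library. CD27, the receptor for CD70 on memory B cells and plasma cells, averaged 21.5 ± 1.31 FPKM in Farage control and 0.518 ± 0.149 FPKM in SU-DHL-8 control (SD; log2 difference 3.89 ± 0.12). JCHAIN averaged 20.8 ± 1.39 FPKM in Farage control and 1.94 ± 0.432 FPKM in SU-DHL-8 control (2.90 ± 0.16). SLAMF7, CD27 and JCHAIN thus separated the untreated lines with no overlap of values, Farage being higher.

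VPREB3 was the reverse, at 12.95 ± 1.36 FPKM in Farage control and 112 ± 7.39 FPKM in SU-DHL-8 control (-3.02 ± 0.34). CD38 averaged 8.62 ± 0.400 FPKM in Farage control and 33.6 ± 1.64 FPKM in SU-DHL-8 control (-1.85 ± 0.06). MZB1 averaged 39.2 ± 2.95 FPKM in Farage control and 95.4 ± 2.81 FPKM in SU-DHL-8 control (-1.27 ± 0.06). Neither line was uniformly closer to a plasma cell by these genes: the secretory gene MZB1 and the surface enzyme CD38 were higher in SU-DHL-8, the J chain and the receptors SLAMF7 and CD27 in Farage.

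The morusinol comparisons follow, gene by gene and by role. In Farage the 3 morusinol and 3 control values did not overlap for 7 of the 8 fitted genes, 1 of them higher with morusinol and 6 lower; 51% of all tested genes were separated in this way (25.8% higher and 25.3% lower), and nothing is read from the count because these results chose the genes. In SU-DHL-8 the values did not overlap for 7 of the 8, 6 of them higher with morusinol and 1 lower, where 54.1% of all tested genes were separated (29.2% higher and 24.9% lower). The overlapping gene was TXNDC5 in Farage and CD27 in SU-DHL-8.

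**Figure D2:**
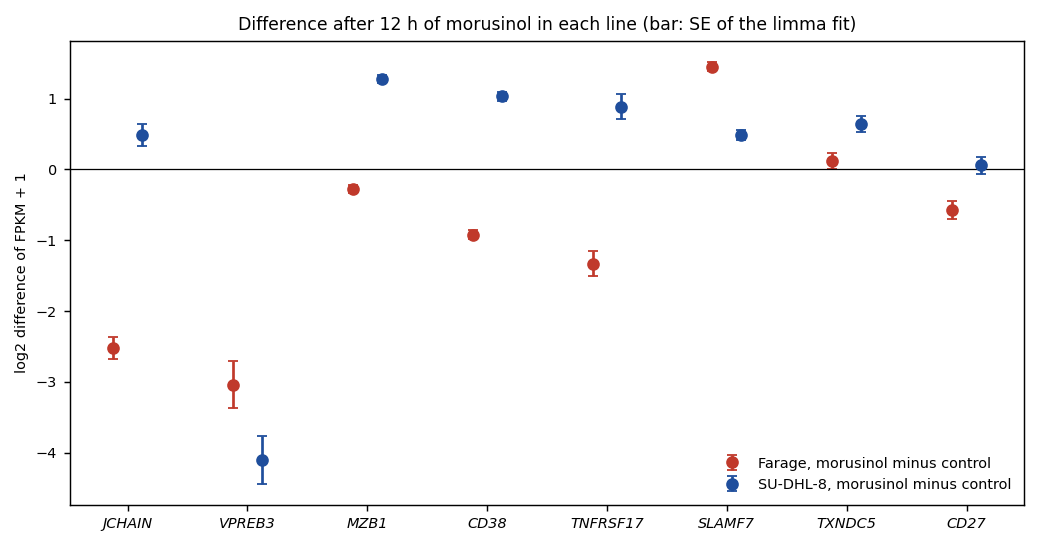
Log2 difference of FPKM + 1, morusinol minus control, for the 8 fitted genes in Farage and in SU-DHL-8; points are fitted differences and bars their standard errors. VPREB3 lies below 0 in both lines (-3.04 and -4.10), whereas JCHAIN, MZB1, CD38 and TNFRSF17 lie below 0 in Farage and above 0 in SU-DHL-8.

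JCHAIN (ENSG00000132465, chromosome 4, 70655541 to 70681817 on the minus strand of GRCh38) encodes the joining chain of polymeric IgM and IgA. It had 2.04, 2.97 and 3.44 FPKM in Farage morusinol against 19.3, 20.8 and 22.1 FPKM in Farage control, a ratio of 0.136 (-2.53 ± 0.16). In SU-DHL-8 it had 2.57, 3.15 and 3.65 FPKM with morusinol against 2.14, 2.23 and 1.44 FPKM in controls (0.49 ± 0.16). The Farage controls stood far above the other 9 libraries, and the Farage morusinol values overlapped those of both SU-DHL-8 groups. The separation in SU-DHL-8 was small, at 0.36 to 0.59 over the fits without 1 library. The Farage morusinol values rest on an estimated 43.5 to 61.9 fragments per library, against 616 to 650 in the Farage controls. ENAM, on the opposite strand, shares 5.18% of the exonic bases of JCHAIN and stayed under 1 FPKM in every library.

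The J chain is of use only with a heavy chain that polymerises. IGHM, the mu heavy chain of IgM, was abundant in Farage, at 366, 350.4 and 328 FPKM with morusinol and 294, 256 and 277 FPKM in controls. The log2 difference was 0.34 ± 0.06, and 0.34 ± 0.23 with a pseudocount of 0.1. In SU-DHL-8 it was listed at 0 in all 3 morusinol libraries and at 0.105, 0.113 and 0 FPKM in controls. IGHM, CD79A, CD79B and VPREB1 were singled out after their values were seen, so their differences are given with no test.

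VPREB3 (ENSG00000128218, chromosome 22, 23752743 to 23754468 on the minus strand) encodes a small immunoglobulin-like protein of the surrogate light chain family, which is named for the stand-in light chain of precursor B cells. It had 1.32, 0.565 and 0.329 FPKM in Farage morusinol against 13.7, 13.8 and 11.4 FPKM in Farage control (-3.04 ± 0.34). SU-DHL-8 libraries held 7.39, 2.48 and 8.72 FPKM with morusinol against 120, 105 and 111 FPKM in controls (-4.10 ± 0.34). Values with morusinol lay below all control values in both lines, and the order of the groups from high to low was SU-DHL-8 control, Farage control, SU-DHL-8 morusinol and Farage morusinol, with no overlap between neighbours. The Farage morusinol values rest on an estimated 2.15 to 10.2 fragments. In SU-DHL-8 the lowest morusinol value came from the shallowest library, replicate 2, at about 9.14 fragments, and the difference without it was -3.64.

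The other genes of the surrogate light chain and the signalling chains CD79A and CD79B did not share one pattern. VPREB1, the V-like part of the surrogate light chain, had 10.4, 8.64 and 6.27 FPKM in SU-DHL-8 morusinol against 38.5, 36.5 and 40.0 FPKM in SU-DHL-8 control (-2.08 ± 0.13). It was listed at 0 in all 6 Farage libraries. IGLL1, the constant-like part, averaged 248 ± 26.2 FPKM in SU-DHL-8 morusinol and 491 ± 18.6 FPKM in SU-DHL-8 control (-0.99 ± 0.10, adjusted p = 1.33e-05), while no Farage library exceeded 0.484 FPKM. IGLL1 resembles the lambda constant region genes closely, so its fragments may in part belong to them. CD79A averaged 376 ± 23.7 FPKM in Farage morusinol and 391 ± 24.8 FPKM in Farage control (-0.06 ± 0.06). In SU-DHL-8 it averaged 43.0 ± 2.88 FPKM with morusinol and 175 ± 5.13 FPKM in controls. CD79B averaged 11.9 ± 2.13 FPKM in Farage morusinol and 21.3 ± 2.07 FPKM in Farage control. In SU-DHL-8 it averaged 91.65 ± 0.636 FPKM with morusinol and 71.7 ± 2.08 FPKM in controls. The list of immunoglobulin constant and surrogate light chain genes, which also holds CD79A and CD79B, had 13 tested genes. Of these 6 rose and 2 fell in Farage (median 0.21), and 5 rose and 5 fell in SU-DHL-8 (median 0). CD79B is counted among the falls in Farage and the rises in SU-DHL-8, and CD79A among the falls in SU-DHL-8. The 6 include IGLL1 at 0.29, a call lost by leaving out 1 library in 7 of 12 cases. They also include IGLC2 and IGLC3. IGLL1, IGLC2 and IGLC3 stayed at or below 1.502 FPKM in Farage and passed the filter through SU-DHL-8 alone. Their rises in Farage thus rest on values near 0, and for IGLC3 and IGLL1 the morusinol and control values overlapped there. VPREB3, VPREB1, IGLL1 and CD79A were all lower with morusinol in SU-DHL-8, while CD79B was higher. In Farage VPREB3 and CD79B were lower with morusinol, while the CD79A values overlapped.

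**Figure D3:**
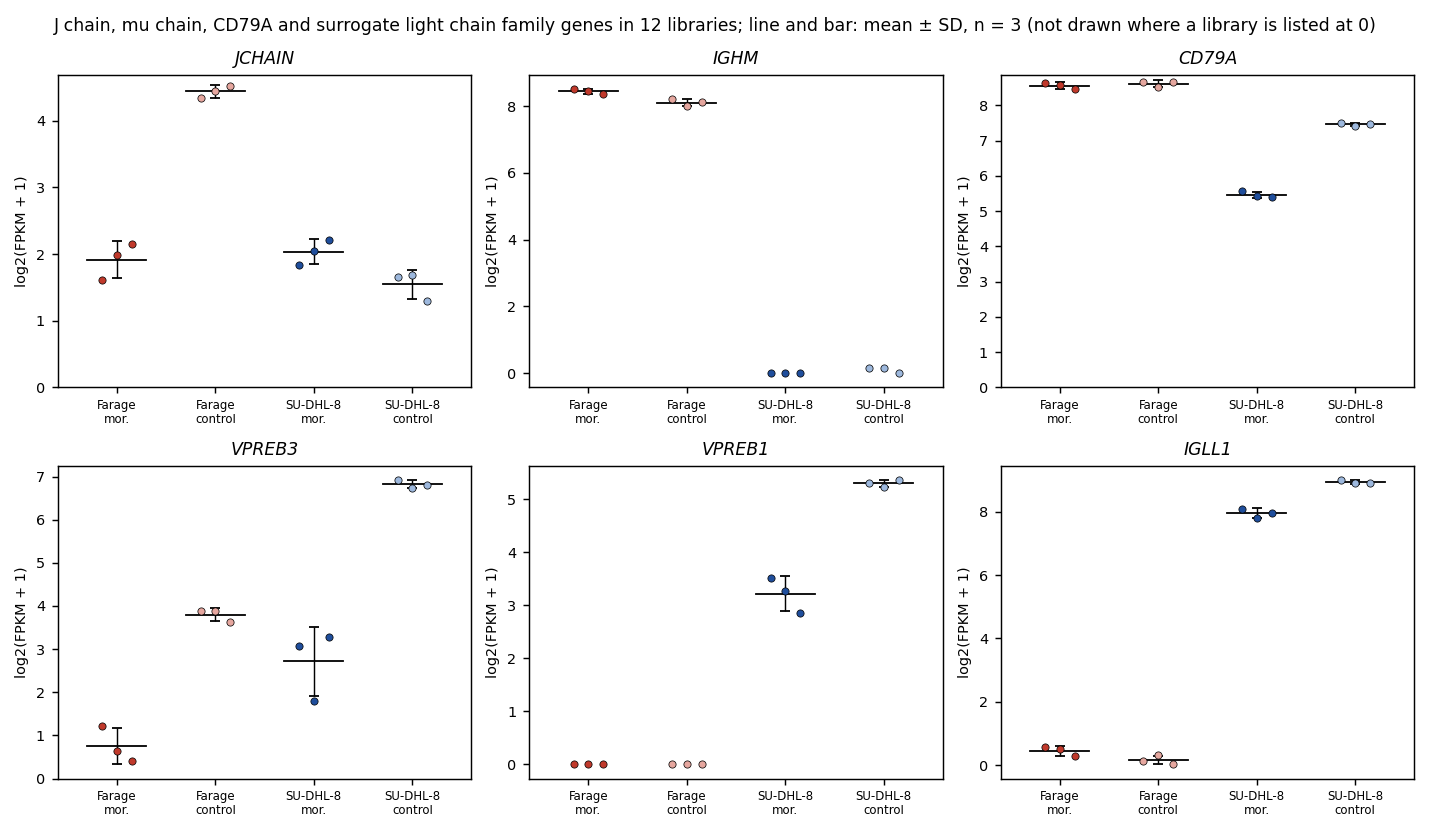
Log2(FPKM + 1) of JCHAIN, IGHM, CD79A, VPREB3, VPREB1 and IGLL1 in the 12 libraries by group; points are libraries, lines and bars the mean ± SD (n = 3), left out where a library is listed at 0. IGHM is abundant in Farage and at or near 0 in SU-DHL-8, VPREB1 is listed at 0 in Farage, and VPREB3 is lower with morusinol in both lines.

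MZB1 (ENSG00000170476, chromosome 5, 139387480 to 139390081, minus strand) encodes an ER cochaperone that works with the chaperone HSP90B1 in assembling IgM. It had 33.3, 32.8 and 30.3 FPKM in Farage morusinol against 41.6, 35.9 and 40.0 FPKM in Farage control (-0.28 ± 0.06). In SU-DHL-8 it had 241, 232 and 228 FPKM with morusinol against 95.0, 92.8 and 98.4 FPKM in controls, a ratio of 2.45 (1.28 ± 0.06). The lines moved apart, with a small difference downward in Farage and a large one upward in SU-DHL-8. HSP90B1 itself rose in both lines, to 63.3 ± 2.27 FPKM in Farage morusinol against 29.1 ± 0.333 FPKM in Farage control (1.09 ± 0.03, adjusted p = 3.7e-09), and to 141 ± 0.803 FPKM in SU-DHL-8 morusinol against 45.7 ± 0.763 FPKM in SU-DHL-8 control (1.60 ± 0.03, adjusted p = 2.19e-10).

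TXNDC5 (ENSG00000239264, chromosome 6, 7881517 to 7910814, minus strand) encodes an ER protein disulfide isomerase that plasma cells make in quantity. It had 0.598, 0.551 and 0.824 FPKM in Farage morusinol against 0.496, 0.734 and 0.360 FPKM in Farage control (0.12 ± 0.11), values that overlap. In SU-DHL-8 it had 2.11, 1.99 and 2.21 FPKM with morusinol against 0.964, 1.04 and 0.969 FPKM in controls (0.64 ± 0.11). In controls the log2 difference between the lines was -0.39 ± 0.11, and -0.84 with a pseudocount of 0.1. With that pseudocount the SU-DHL-8 difference was 1.01. The readthrough gene BLOC1S5-TXNDC5 covers 60.6% of the exonic bases of TXNDC5 on the same strand and is listed at 0 in all 12 libraries, and its part in the level of TXNDC5 was not tested.

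CD38 (ENSG00000004468, chromosome 4, 15778275 to 15853230, plus strand) is a surface enzyme that consumes NAD and is dense on plasma cells. It had 3.82, 3.81 and 4.61 FPKM in Farage morusinol against 9.08, 8.37 and 8.40 FPKM in Farage control (-0.92 ± 0.06), and 69.4, 69.4 and 70.5 FPKM in SU-DHL-8 morusinol against 32.8, 35.5 and 32.5 FPKM in SU-DHL-8 control (1.03 ± 0.06). The ratio of morusinol to control was 0.474 in Farage and 2.08 in SU-DHL-8, opposite shifts of nearly equal size. SLAMF7 (ENSG00000026751, chromosome 1, 160739057 to 160754821, plus strand) had 109, 109 and 111 FPKM in Farage morusinol against 39.7, 38.0 and 40.7 FPKM in Farage control (1.45 ± 0.07). In SU-DHL-8 it had 0.530, 0.683 and 0.373 FPKM with morusinol against 0.136, 0.0437 and 0.0840 FPKM in controls (0.49 ± 0.07). SLAMF7 was the only one of the 8 fitted genes whose values were higher with morusinol, without overlap, in both lines. Its SU-DHL-8 values were under 1 FPKM in every library, and the difference there was 1.74 with a pseudocount of 0.1.

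TNFRSF17 (BCMA; ENSG00000048462, chromosome 16, 11965107 to 11968068, plus strand) is the receptor for APRIL and BAFF on which long-lived plasma cells depend. It had 0.545, 0.631 and 0.0920 FPKM in Farage morusinol against 2.62, 2.62 and 2.35 FPKM in Farage control (-1.33 ± 0.18). SU-DHL-8 libraries held 1.13, 2.03 and 2.14 FPKM with morusinol against 0.517, 0.486 and 0.433 FPKM in controls (0.88 ± 0.18). The groups did not overlap in either line and the directions were opposite, at an estimated 1.10 to 55.6 fragments per library. With a pseudocount of 0.1 the differences were -2.55 in Farage and 1.64 in SU-DHL-8. Between the untreated lines TNFRSF17 was higher in Farage (1.25 ± 0.18, and 2.19 with a pseudocount of 0.1).

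TNFRSF13B (TACI, the other receptor shared by BAFF and APRIL; ENSG00000240505, chromosome 17, 16929816 to 16972118, minus strand) failed the filter. It was listed at 0.0445, 0.0300 and 0.0525 FPKM in Farage morusinol and at 0.527, 0.469 and 0.238 FPKM in Farage control, and at 0 in all SU-DHL-8 libraries but morusinol replicate 3, at 0.0376 FPKM. About 1.0 to 2.0 fragments lay behind the Farage morusinol values and 14.0 to 35.4 behind the Farage controls. TNFRSF13B and TNFRSF17, the APRIL receptors, were thus both lower in Farage with morusinol, each at few fragments. The pseudogene TBC1D27P shares 17.3% of the exonic bases of TNFRSF13B.

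CD27 (ENSG00000139193, chromosome 12, 6444867 to 6451718, plus strand) had 15.4, 14.3 and 12.8 FPKM in Farage morusinol against 22.9, 20.3 and 21.3 FPKM in Farage control (-0.57 ± 0.12). SU-DHL-8 libraries held 0.901, 0.375 and 0.505 FPKM with morusinol against 0.670, 0.373 and 0.512 FPKM in controls (0.06 ± 0.12), which overlap. These SU-DHL-8 values of CD27 rest on an estimated 3.20 to 14.4 fragments per library. CD27-AS1 overlaps 37.0% of its exonic bases on the opposite strand, and no label says whether counting used strand. CD70, the ligand of CD27, rose in both lines, to 93.6 ± 4.01 FPKM in Farage morusinol against 55.2 ± 2.99 FPKM in Farage control (0.75 ± 0.10, adjusted p = 0.000124) and to 11.8 ± 0.941 FPKM in SU-DHL-8 morusinol against 6.13 ± 1.04 FPKM in SU-DHL-8 control (0.85 ± 0.10, adjusted p = 3.97e-05). In Farage the receptor was thus lower and its ligand higher with morusinol.

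The promoters of 4 genes are shown: JCHAIN and VPREB3, both lower with morusinol in Farage, and, for contrast, MZB1 and CD38, the most abundant of the 8 in SU-DHL-8 with morusinol and at 2.45 and 2.08 times their controls with morusinol in SU-DHL-8. Each runs 5′ to 3′ from 250 bases before to 50 bases after the RefSeq start site on GRCh38.p14: JCHAIN at chr4:70666459-70666758 (minus strand), VPREB3 at chr22:23754376-23754675 (minus strand), MZB1 at chr5:139389864-139390163 (minus strand) and CD38 at chr4:15778078-15778377 (plus strand). Capitals mark matches on either strand to the octamer ATGCAAAT (read by POU2F2 with its coactivator POU2AF1), the ER stress element (CCAAT and CCACG with 9 free bases between them), the XBP1 core CCACGT, the ETS-IRF composite (GGAA and GAAA with 2 free bases between them) and the E2A E-box CAGGTG.
JCHAIN: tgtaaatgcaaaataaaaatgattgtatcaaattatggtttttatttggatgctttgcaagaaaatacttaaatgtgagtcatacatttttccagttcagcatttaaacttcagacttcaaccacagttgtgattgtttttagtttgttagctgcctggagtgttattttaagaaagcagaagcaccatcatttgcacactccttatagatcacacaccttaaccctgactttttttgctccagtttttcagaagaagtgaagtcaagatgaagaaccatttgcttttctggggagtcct
VPREB3: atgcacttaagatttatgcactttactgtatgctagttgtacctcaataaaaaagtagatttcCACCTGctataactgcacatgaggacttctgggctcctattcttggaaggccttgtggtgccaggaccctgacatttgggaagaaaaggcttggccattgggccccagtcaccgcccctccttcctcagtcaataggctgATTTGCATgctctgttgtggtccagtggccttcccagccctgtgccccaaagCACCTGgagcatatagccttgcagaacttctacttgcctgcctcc
MZB1: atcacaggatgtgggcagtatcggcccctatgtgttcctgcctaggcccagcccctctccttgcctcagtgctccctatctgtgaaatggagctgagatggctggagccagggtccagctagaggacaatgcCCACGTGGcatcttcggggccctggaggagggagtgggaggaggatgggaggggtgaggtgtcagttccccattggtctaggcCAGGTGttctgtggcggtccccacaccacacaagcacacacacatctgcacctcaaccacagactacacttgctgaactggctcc
CD38: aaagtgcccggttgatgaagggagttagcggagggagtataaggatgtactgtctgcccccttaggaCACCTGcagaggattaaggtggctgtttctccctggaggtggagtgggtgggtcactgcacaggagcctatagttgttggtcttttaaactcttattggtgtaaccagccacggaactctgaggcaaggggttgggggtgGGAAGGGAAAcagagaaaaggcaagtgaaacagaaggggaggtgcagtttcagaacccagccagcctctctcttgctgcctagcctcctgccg
The JCHAIN window held none of the 5 motifs. The VPREB3 window held 1 octamer, beginning 47 bases before the start site, and 2 E-boxes. The MZB1 window held the XBP1 core on both strands, as overlapping matches of a palindrome that begin 118 and 116 bases before the start site, and 1 E-box. The CD38 window held 1 ETS-IRF composite and 1 E-box. Among 35116 RefSeq promoter windows of this length, 1.77% held the octamer, 9.72% the XBP1 core, 2.82% the ETS-IRF composite, 20.6% the E-box and 0.0769% the ER stress element. Such matches are a description of these letters and not of binding. The table held windows for 8 of the 10 genes, and SLAMF7 and TNFRSF17 had no entry.

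The genes that act around these 10 were examined in 10 lists with 143 genes, of which 112 were tested; all 17574 genes had a median log2 difference of -0.03 in Farage and 0.02 in SU-DHL-8. Limma called 43.1% of all genes in Farage (21.9% higher and 21.2% lower) and 46.8% in SU-DHL-8 (25.1% higher and 21.6% lower). The difference of the responses was called for 34.9%, with 17.3% higher in Farage and 17.6% lower; 49.6% of these calls were thus higher in Farage, and 62.5% with TPM scaling. Of the 8 transcription factors of plasma cell fate 5 rose and 3 fell in Farage (median 0.30), and 5 rose, 1 fell and 2 did not pass in SU-DHL-8 (median 0.68). XBP1, the factor of ER expansion, rose to 50.3 ± 1.45 FPKM in Farage morusinol against 8.14 ± 0.434 FPKM in Farage control (2.49 ± 0.05, adjusted p = 1.47e-10), and to 126 ± 1.498 FPKM in SU-DHL-8 morusinol against 31.8 ± 1.58 FPKM in SU-DHL-8 control (1.95 ± 0.05, adjusted p = 5.31e-10). IRF4 rose in both lines as well, by 1.003 ± 0.04 in Farage and 1.79 ± 0.04 in SU-DHL-8 on the log2 scale. XBP1 and IRF4 thus rose in Farage, where JCHAIN, CD38, TNFRSF17 and MZB1 were lower.

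PRDM1, the repressor that ends the B cell programme, went opposite ways. It fell to 2.16 ± 0.180 FPKM in Farage morusinol against 3.25 ± 0.189 FPKM in Farage control (-0.43 ± 0.09, adjusted p = 0.003) and rose to 4.12 ± 0.513 FPKM in SU-DHL-8 morusinol against 1.67 ± 0.201 FPKM in SU-DHL-8 control (0.94 ± 0.09, adjusted p = 1.02e-05). Limma's test of the difference between the 2 responses gave -1.37 ± 0.13 (adjusted p = 2.48e-05). POU2AF1 (OCA-B), the coactivator at octamer sites, fell in Farage (-0.53 ± 0.04, adjusted p = 3.89e-06) and was at 0.10 ± 0.04 in SU-DHL-8 (adjusted p = 0.0777). Its partner POU2F2 (OCT2) fell in both lines, to 9.99 ± 0.421 FPKM in Farage morusinol against 26.7 ± 2.83 FPKM in Farage control and to 0.422 ± 0.152 FPKM in SU-DHL-8 morusinol against 3.02 ± 0.268 FPKM in SU-DHL-8 control. ELL2, an elongation factor for secreted immunoglobulin mRNA, rose by 0.31 ± 0.05 in Farage and 1.28 ± 0.05 in SU-DHL-8 on the log2 scale. CREB3L2, a transcription factor anchored in the ER membrane, rose in Farage to 8.88 ± 0.836 FPKM with morusinol against 2.90 ± 0.0281 FPKM in controls, and was at or near 0 in SU-DHL-8. ZBTB20, a zinc finger factor, rose by 0.28 ± 0.10 in Farage, a call lost by leaving out 1 library in 10 of 12 cases, and by 0.43 ± 0.10 in SU-DHL-8.

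The factors that hold the B cell state did not move as a group, with 4 higher and 3 lower of 9 tested in Farage (median -0.02) and 3 higher and 4 lower in SU-DHL-8 (median -0.08). BCL6, the repressor of germinal centre B cells, fell to 15.9 ± 0.576 FPKM in Farage morusinol against 39.8 ± 2.57 FPKM in Farage control (-1.27 ± 0.07, adjusted p = 4.3e-07); SU-DHL-8 held 0.285 ± 0.122 FPKM with morusinol and 0.652 ± 0.0778 FPKM in controls. BACH2, a repressor of PRDM1, rose to 2.06 ± 0.209 FPKM in Farage morusinol against 0.142 ± 0.0183 FPKM in Farage control and to 61.2 ± 2.23 FPKM in SU-DHL-8 morusinol against 21.8 ± 0.465 FPKM in SU-DHL-8 control.

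**Figure D4:**
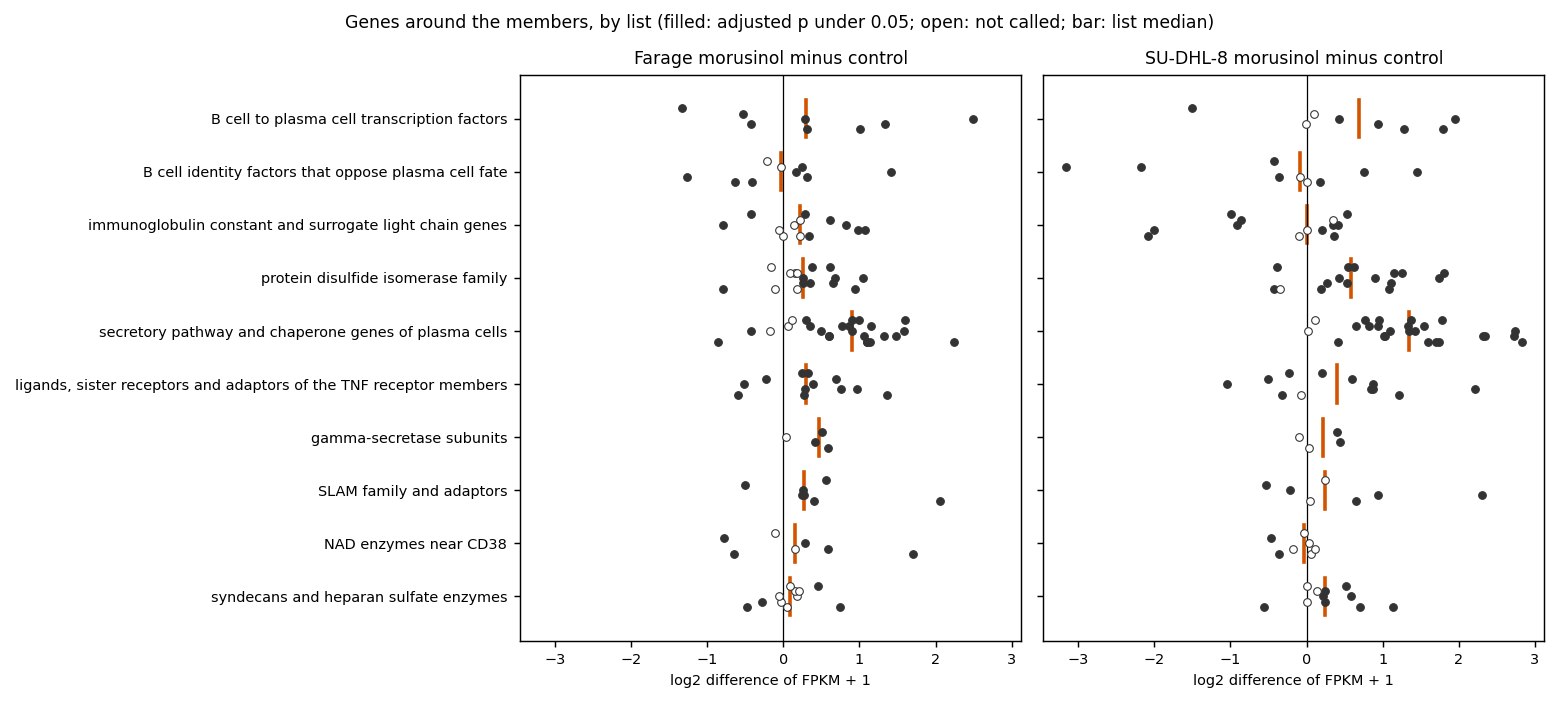
Log2 difference of FPKM + 1, morusinol minus control, for the 112 tested genes of 10 lists, Farage left and SU-DHL-8 right; points are genes (filled where limma's adjusted p is under 0.05), vertical bars list medians. The secretory pathway list lies furthest right in both panels, with medians of 0.90 in Farage and 1.34 in SU-DHL-8.

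Most secretory pathway and chaperone genes, a list that includes the MZB1 partner HSP90B1, rose in both lines. In Farage 20 were higher and 2 lower of 25 (median 0.90), and in SU-DHL-8 23 were higher and none lower (median 1.34). HERPUD1, which serves ER-associated degradation, rose to 268 ± 3.90 FPKM in Farage morusinol against 95.0 ± 1.80 FPKM in Farage control and to 57.5, 59.3 and 59.3 FPKM in SU-DHL-8 morusinol against 10.8, 11.1 and 11.1 FPKM in SU-DHL-8 control. In the protein disulfide isomerase family, to which TXNDC5 belongs, 9 of 16 rose and 1 fell in Farage (median 0.25), and 13 rose and 2 fell in SU-DHL-8 (median 0.58). P4HB, the founding member, reached 39.2 ± 1.97 FPKM in Farage morusinol against 20.0 ± 1.06 FPKM in Farage control, and 49.5 ± 0.440 FPKM in SU-DHL-8 morusinol against 22.7 ± 0.431 FPKM in SU-DHL-8 control. PDIA4 rose by 0.68 ± 0.04 in Farage and by 1.74 ± 0.04 in SU-DHL-8 on the log2 scale. MZB1 was lower in Farage morusinol while most genes of the secretory pathway list rose there.

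The ligands, sister receptors and adaptors of TNFRSF17, TNFRSF13B and CD27 had 9 higher and 3 lower of 12 tested in Farage and 7 higher and 4 lower in SU-DHL-8 (medians 0.30 and 0.40). NFKB2, the noncanonical NF-kappaB subunit to which BAFF receptors signal, rose by 1.36 ± 0.07 in Farage and 1.21 ± 0.07 in SU-DHL-8 on the log2 scale. Of 4 tested subunits of gamma-secretase, the protease that sheds TNFRSF17 from the surface, 3 rose in Farage and 2 in SU-DHL-8, with none lower. NCSTN, the subunit that takes in the substrate, rose by 0.42 ± 0.05 in Farage and 0.43 ± 0.05 in SU-DHL-8. ADAM17, a sheddase listed with the heparan sulfate genes around SDC1, rose by 0.74 ± 0.06 in Farage and 1.14 ± 0.06 in SU-DHL-8; that list had 2 higher and 2 lower of 11 in Farage and 7 higher and 1 lower in SU-DHL-8.

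The list of SLAM family genes, the relatives of SLAMF7, and their adaptors had 7 tested genes. Of these 6 were higher and 1 lower in Farage (median 0.27), and 3 were higher and 2 lower in SU-DHL-8 (median 0.24). FYN, which is not a SLAM family gene, is counted among the higher genes in both lines (0.24 ± 0.07 in Farage and 2.31 ± 0.07 in SU-DHL-8). LY9 (SLAMF3) rose to 21.9 ± 0.833 FPKM in Farage morusinol against 4.48 ± 0.116 FPKM in Farage control (2.06 ± 0.05, adjusted p = 1.11e-09) and to 4.27 ± 0.278 FPKM in SU-DHL-8 morusinol against 2.35 ± 0.0863 FPKM in SU-DHL-8 control (0.65 ± 0.05, adjusted p = 1.63e-06). Of 7 NAD enzymes around CD38, 3 rose and 2 fell in Farage, and none rose and 2 fell in SU-DHL-8. NAMPT, the rate-limiting enzyme of NAD salvage, rose to 42.5 ± 2.74 FPKM in Farage morusinol against 12.3 ± 0.518 FPKM in Farage control, and was at 8.71 ± 0.346 FPKM in SU-DHL-8 morusinol and 8.35 ± 0.408 FPKM in SU-DHL-8 control (0.06 ± 0.05, adjusted p = 0.465). In Farage NAMPT was thus higher and CD38 lower with morusinol.

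Among 8710 other tested genes with a mean of at least 5 FPKM in at least 1 group, the 5 most like JCHAIN over the 12 libraries were CYB561A3, RSU1, CCL4, HLA-DMA and PARN, with Pearson r of 0.962 to 0.977 on the log2 scale. CYB561A3, a transmembrane iron reductase of the lysosome, averaged 2.46 ± 0.350 FPKM in Farage morusinol, 10.1 ± 0.284 in Farage control, 2.51 ± 0.207 in SU-DHL-8 morusinol and 2.48 ± 0.132 in SU-DHL-8 control, so it too was high in the Farage controls alone. The 5 most like VPREB3 were POLR2F, NDUFS1, PPP1R14B, TTLL12 and CCT6A, with r of 0.987 to 0.99. POLR2F, an RNA polymerase subunit, averaged 1.87 ± 0.342 FPKM in Farage morusinol, 4.10 ± 0.300 in Farage control, 3.05 ± 0.490 in SU-DHL-8 morusinol and 7.60 ± 0.432 in SU-DHL-8 control. These correlations describe libraries that share line and treatment, and they carry no p.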

How the data were processed

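Per the labels' protocols, a SMARTer mRNA-seq kit turned total RNA into sequencing libraries. The authors deposited 1 table of FPKM with 1 column per library; the sources used here do not name the aligner, the counter, its annotation or its strand setting. Only mouse builds stand in the submitters' processing notes, yet the identifiers are human, and 94.8% of 61466 match GENCODE release 29 (GRCh38), which gave positions and exon lengths. Columns marked n were read as controls, the remaining group of each line. Fragments were estimated from the steps of FPKM times exon length: with a tolerance of 0.02, 49% to 53% of values under 50 fragments were whole. The estimates carry no counting interval.

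Genes with at least 1 FPKM in at least 3 libraries (17574) were fitted as log2(FPKM + 1) in limma 3.58.1 (R 4.3.3) with 1 mean per group, an intensity trend and a robust prior, and called at a Benjamini-Hochberg adjusted p under 0.05, two-sided; a fold change on this scale understates that of low genes. Tables and plots used Python 3.11.15 with pandas 2.3.3, numpy 2.4.6 and matplotlib 3.10.9. The 10 genes and all lists were chosen with earlier results of these data known, and 2 genes of the lists are not reported here. Up to 4 genes of each list were named by their p ranks over both lines. Lists of 8 or fewer tested genes could be named in full. IGHM, IGHD, IGLC3, CD79A, CD79B and VPREB1 fell outside this rule. Alternatives were another pseudocount (0.1), no filter, TPM and median-of-ratios scaling, a fit of only the groups compared, a replicate block and leaving out each library.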

Additional observations from a re-analysis of the deposited data

Results flagged for a closer look

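For 4 of the 10 genes all values with morusinol lay below the controls in Farage and above them in SU-DHL-8. The response in Farage less that in SU-DHL-8 was -3.02 for JCHAIN, -2.22 for TNFRSF17, -1.96 for CD38 and -1.56 for MZB1 on the log2 scale, and these differences were not tested because the genes were chosen on these contrasts.

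For the genes around them the difference between the lines was tested in limma and passed an adjusted p of 0.05. Among transcription factors the Farage response was lower than the SU-DHL-8 response for PRDM1 (-1.37), ELL2 (-0.96), BCL6 (-0.90), IRF4 (-0.79) and POU2AF1 (-0.63), and higher for CREB3L2 (1.34) and XBP1 (0.54). CREB3L2 was at or near 0 FPKM in SU-DHL-8 and passed the filter through Farage alone, so its value is in effect the Farage difference. The call of BCL6 was lost with a pseudocount of 0.1 (-0.31, adjusted p = 0.407), and its ratios of morusinol to control were 0.401 in Farage and 0.437 in SU-DHL-8. Among secretory genes it was lower for PDIA4 (-1.06), HERPUD1 (-0.83) and HSP90B1 (-0.51), all 3 of which rose in both lines. For the sheddase ADAM17 it was -0.40, a call lost with TPM scaling (-0.30, adjusted p = 0.076). It was higher for NAMPT (1.65) and LY9 (1.41). For chains of the B cell receptor and its precursor form it was 1.28 for IGLL1 and -0.95 for IGHG3. It was 2.08 for VPREB1, 1.95 for CD79A, 0.44 for IGHM and -1.15 for CD79B, given with no test. The list of immunoglobulin constant and surrogate light chain genes, which also holds CD79A and CD79B, had 13 tested genes. Limma called 8 of them higher and 3 lower, against 17.3% and 17.6% of all genes. These counts include the genes given above with no test. Among the 8, VPREB1 is listed at 0 in Farage, and IGLL1, IGLC2 and IGLC3 stay at or below 1.502 FPKM there. IGHM and IGHD are at or near 0 in SU-DHL-8. Their differences rest in 1 line on values near 0, so nothing is read from the counts. With a pseudocount of 0.1 the value for IGLL1 was 2.14.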

How the results depend on the processing

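The 8 fitted genes kept their direction in both morusinol comparisons and between the untreated lines under every alternative run, except CD27 in SU-DHL-8, which lay between -0.07 and 0.16. For the difference of the responses, SLAMF7 turned to -0.27 with a pseudocount of 0.1 (0.97 as reported), and BACH2 turned to 1.67 with that pseudocount and to 0.90 with TPM scaling (-0.03 as reported); the cause was not tested. With that pseudocount TNFRSF17 stood at -4.19 for the difference of the responses (-2.22 as reported). No pairing by replicate number was seen: same-numbered libraries of a line had deviations correlated at -0.08 to 0.03, and 2 of 6 morusinol libraries correlated best with their own number. Whether same-numbered libraries were handled together cannot be told from these correlations. The replicate block gave 6853 called genes in Farage and 7619 in SU-DHL-8, against 7567 and 8216 without it. For the difference of the responses it gave 5110 against 6126, and between the untreated lines 10914 against 11271. With TPM scaling 62.5% of the calls for the difference of the responses were higher in Farage, against 49.6% as deposited (44.4% against 53.7% for morusinol in SU-DHL-8), and the median of all genes between the untreated lines was 0.19, against 0.08. The fit of only the groups compared is the same as the reported one for the difference of the responses and gives no separate value there. VPREB3 in Farage, TNFRSF17 in both lines, TNFRSF13B, and CD27 and SLAMF7 in SU-DHL-8 rest on few fragments, which limits their precision.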

Other observations

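The ratio of mean control to mean morusinol for VPREB3 was 17.5 in Farage and 18.1 in SU-DHL-8, although its controls differed 8.65-fold. The morusinol means under these ratios were 0.739 ± 0.520 FPKM in Farage and 6.20 ± 3.29 FPKM in SU-DHL-8. An estimated 2.15 to 10.2 fragments per library lay behind the Farage morusinol values, so the likeness of the ratios is imprecise. On the log2(FPKM + 1) scale the difference of the responses was 1.06 ± 0.47, and with a pseudocount of 0.1 it was 0.20, so the size of the gap between the lines follows the pseudocount. SLAMF7 likewise had ratios of morusinol to control of 2.78 in Farage and 6.02 in SU-DHL-8, an order opposite to that of its log2 differences of 1.45 and 0.49; its SU-DHL-8 values all lie under the pseudocount of 1.

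With morusinol JCHAIN in Farage lay near its level in SU-DHL-8 in either condition, 2.82 ± 0.711 FPKM against 3.12 ± 0.542 in SU-DHL-8 morusinol and 1.94 ± 0.432 in SU-DHL-8 control. For MZB1 and CD38 the lines moved further apart: MZB1 stood at 32.1 ± 1.63 FPKM in Farage morusinol against 233.5 ± 6.33 in SU-DHL-8 morusinol, and CD38 at 4.08 ± 0.457 against 69.8 ± 0.646. TXNDC5 stayed at or below 2.21 FPKM in all libraries, while the related P4HB averaged at least 19.99 FPKM in every group. The readthrough gene BLOC1S5-TXNDC5 covers 60.6% of the exonic bases of TXNDC5, and its part in that low level was not tested.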
